A study of Mus musculus with 6 samples.

Results

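The genes described here are the enzymes of serine synthesis and their close partners in one-carbon metabolism, followed in mouse embryonic stem cells whose translation was blocked. They are Phgdh, Psat1, Psph, Shmt1, Shmt2, Mthfd2, Mthfd1l, Aldh1l2, Pck2 and Cth. They were chosen by name, and all 10 were found by symbol among the 17485 gene names in the files. The cells were E14, an embryonic stem cell line of 129/Ola background, grown on gelatin with serum and leukaemia inhibitory factor. Cycloheximide, which stops ribosomes during translation elongation, was dissolved in ethanol (0.007%) and used at 250 µg/mL, beginning 24 h after seeding and lasting 3 h or 6 h. Control cells had ethanol without the drug for 9 h, so vehicle hours differ between the groups as well as the drug. With every treatment starting 24 h after seeding, hours from seeding to its end also differ and are longest in the control. Each group had 2 libraries, and 3 comparisons were made. Each treated group was set against the control, and the later against the earlier treated group. Both comparisons with the control share its libraries. The labels do not say whether the libraries of a group came from separate cultures, so p-values measure the spread between these libraries, which may be technical.

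Serine is made from the glycolytic intermediate 3-phosphoglycerate by Phgdh, Psat1 and Psph in turn. The serine hydroxymethyltransferases Shmt1 (cytosol) and Shmt2 (mitochondria) then split serine into glycine and a one-carbon unit carried by folate, and the mitochondrial folate enzymes Mthfd2, Mthfd1l and Aldh1l2 carry that unit on to formate or carbon dioxide. Proliferating cells, stem cells among them, draw on these units for nucleotides and methylation. Many of these genes are known targets of the transcription factor ATF4, which is made when amino acids run short or translation initiation is impaired.

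At 3 h no member passed the test, although 9 of the 10 were measured below the control on average. At 6 h 8 members had fallen: Shmt1 the most, by 65.3%, then Mthfd2, Psph, Psat1, Pck2, Mthfd1l, Phgdh and Shmt2, which fell by 28.8%. The transsulfuration enzyme Cth did not share this pattern, with values at 6 h slightly above the control that did not pass the test. Of all genes tested, 1.3% passed as lower at 3 h and 14.3% at 6 h. With libraries scaled by total counts alone, 3 members still passed as lower at 6 h (Shmt1, Mthfd2 and Psat1), and Cth passed as higher. On that scale 4173 of 12755 genes passed, 88.2% of them as higher. The median log2 change of all genes was 0.40 there, beside 0.47 for Cth. The Atf4 transcript itself rose at both times.

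The libraries held 9385447 to 27351079 counts, so 3 counts, taken as the floor for detection, correspond to 0.110 to 0.320 CPM, the usual unit of counts relative to library total. These floors cover counting error only. Replicates differed by more than counting error in each group, so no library was a copy of another. Transcripts of the mitochondrial chromosome took 24.7% and 24.9% of counts in the controls, 19.6% and 18.9% at 3 h, and 17.4% and 16.6% at 6 h. All 10 pluripotency markers examined were above 0 in every library, and they summed to 6946 and 7122 CPM in the controls, 7966 and 8221 at 3 h and 5715 and 5542 at 6 h. At 3 h 2 of them were called higher and 1 lower, and at 6 h 0 were called higher and 4 lower, with all 10 measured below the control. Of all genes tested, 3.6% were called higher and 1.3% lower at 3 h, and 14.8% and 14.3% at 6 h. Fibroblast or feeder markers summed to 4.10 to 12.1 CPM and mesoderm markers to 5.25 to 12.2 CPM. Endoderm markers summed to 5.41 and 7.33 CPM in the controls, 13.8 and 14.6 at 3 h and 11.3 and 14.0 at 6 h, with 0 called. The neural list, mostly Tubb3 and Sox1, summed to 342 and 329 CPM in the controls, 285 and 327 at 3 h and 144 and 152 at 6 h. At 6 h 1 of its 4 genes was called lower (Tubb3) and 1 higher (Nes), and the median log2 change was 0.49. The trophoblast list, mostly Krt8, summed to 37.9 and 51.9 CPM in the controls, 30.4 and 29.6 at 3 h and 20.4 and 21.5 at 6 h, in the same order of groups as most members. At 6 h 1 of its 2 tested genes was called lower (Krt8). The part of these shifts in the results below was not tested. In bulk RNA, fewer cells of a type and less RNA per cell cannot be told apart.

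Promoter sequence is shown first, because ATF4 is the best known common regulator of these genes. RefSeq promoter windows on GRCm38.p6, 250 bases before to 50 bases after each annotated start, were searched on both strands for TGATGNAA, the core of the element bound by ATF4 with a C/EBP partner. Windows were found for 8 members (9 windows, since Psat1 has 2). Aldh1l2 and Cth were without one. The letters occurred in 1 of these 9 windows, that of Pck2, against 3.97% of all 32851 windows (1304). Among 18 ATF4 regulators and targets with a window, 9 genes held a match. The E-box CACGTG, bound by MYC, occurred in 0 member windows and in 7.15% of all windows (2349). A match is a description of letters, and a window without one says only that these letters do not occur in it. The whole Pck2 window is given 5′ to 3′, with the match in capitals, read here from the opposite strand and beginning 103 bases before the start.
Pck2, chr14:55540016-55540315, plus strand: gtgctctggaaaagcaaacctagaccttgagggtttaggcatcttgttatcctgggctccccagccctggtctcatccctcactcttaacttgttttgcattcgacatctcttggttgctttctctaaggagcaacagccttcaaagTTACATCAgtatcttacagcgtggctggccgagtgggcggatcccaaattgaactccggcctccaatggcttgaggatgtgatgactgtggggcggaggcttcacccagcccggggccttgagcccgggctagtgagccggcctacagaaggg

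The Pck2 match is set beside matches in the windows of 3 known ATF4 targets outside the members. Each is written 5′ to 3′ along the gene's own strand with the matched letters in capitals. The 3 targets are shown because they are standard readouts of ATF4, and their values are given further on. Binding at any of these letters was not tested.
Pck2, chr14:55540151-55540182, plus strand: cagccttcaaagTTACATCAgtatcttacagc
Trib3, chr2:152344027-152344058, minus strand: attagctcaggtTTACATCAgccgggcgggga
Asns, chr6:7693213-7693244, minus strand: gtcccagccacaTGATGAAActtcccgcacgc
Chac1, chr2:119351037-119351068, plus strand: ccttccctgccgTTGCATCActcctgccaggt

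Levels are given per library as CPM scaled by TMM, a method that sets the libraries level by the bulk of their genes. Values run replicate 1 then replicate 2. A gene was called when its Benjamini-Hochberg adjusted p in edgeR's quasi-likelihood test, over 12755 genes, was below 0.05. Fold changes are log2 values ± SE from the same fit. The library plot shows all 10 genes.

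**Figure D1:**
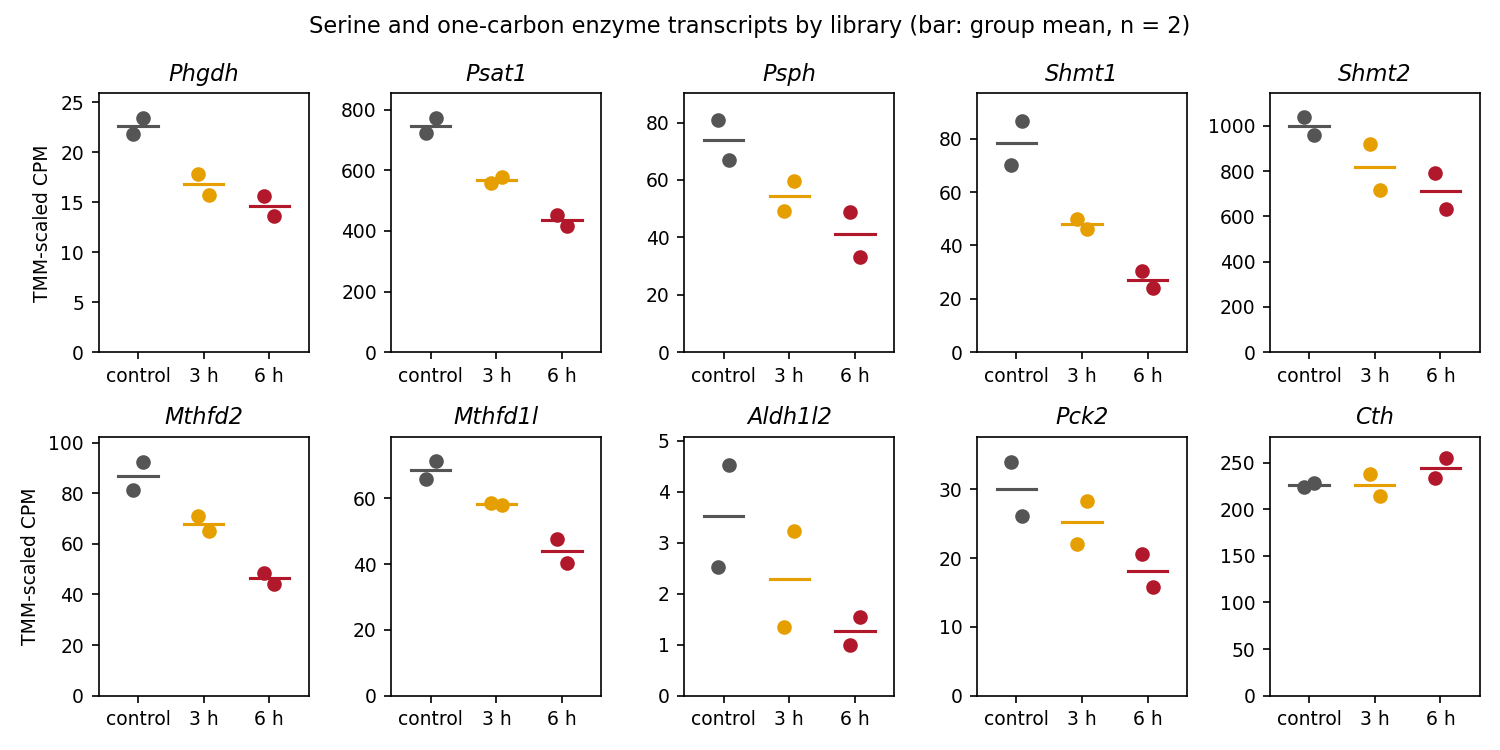
TMM-scaled CPM of each member (vertical axis, its own scale per panel, starting at 0) in the 2 control, 2 3 h and 2 6 h libraries (points). Short lines are group means. Shmt1 runs from 70.1 and 86.6 CPM in the controls to 30.3 and 24.0 at 6 h, while Cth stays between 214 and 255 CPM.

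Phosphoserine synthesis comes first. Phgdh, on chromosome 3 (98313170 to 98339990, minus strand, mm10), oxidises 3-phosphoglycerate in the committed step of the pathway. It was measured at 21.8 and 23.5 CPM in the controls, 17.8 and 15.7 at 3 h and 15.6 and 13.6 at 6 h. Both treated groups lay below both controls. The log2 change was -0.43 ± 0.17 at 3 h (adjusted p = 0.17) and -0.63 ± 0.17 at 6 h (adjusted p = 0.0266). It fell by 35.2% at the later time. The 6 h call was lost without control replicate 2 (-0.57, adjusted p = 0.0719), without 6 h replicate 1 (-0.73, 0.0754) and without 6 h replicate 2 (-0.53, 0.171). It was also lost with all libraries thinned to the smallest total (-0.60, 0.0647). Phgdh has 9 annotated pseudogenes with close sequence matches of up to 1608 bases, and none of them is named in the files. Where the authors' counting placed reads shared with them is not given in the sources used here.

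Psat1 (chromosome 19, 15904678 to 15947337, minus strand) is the aminotransferase of the second step. Its counts were 9752 and 6322 in the controls, 8629 and 9991 at 3 h, and 13713 and 10880 at 6 h. Scaled for library size, these were 723 and 772 CPM, then 557 and 577, then 453 and 417. The 3 groups did not overlap and stood in the order of treatment time. At 3 h the change was -0.40 ± 0.10 (adjusted p = 0.0563), just outside the threshold. The change passed it in 4 of 17 alternative fits (such as other tests, scalings or filters, or 1 library left out). It ran from -0.45 to -0.17 over them. At 6 h it was -0.78 ± 0.10 (adjusted p = 0.00141), so Psat1 fell by 41.8%. Between 3 h and 6 h the change was -0.38 ± 0.10 (adjusted p = 0.0964).

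Psph, the phosphatase of the last step (chromosome 5, 129765558 to 129787449, minus strand), was measured at 81.1 and 67.1 CPM in the controls. It stood at 49.2 and 59.7 CPM at 3 h and 48.8 and 33.2 CPM at 6 h. Its replicates were further apart than those of Psat1, and the 6 h libraries lay below all others. The change was -0.45 ± 0.20 at 3 h (adjusted p = 0.22) and -0.85 ± 0.20 at 6 h (adjusted p = 0.0164), where Psph fell by 44.7%. That call was lost without control replicate 1 (-0.71, adjusted p = 0.0509) and without 6 h replicate 2 (-0.60, 0.106). Psph shares 452 bases of exon sequence with Cct6a, a chaperonin subunit gene on the opposite strand. Whether counting used the strand is not given in the sources used here, so reads of the pair cannot be told apart. Cct6a also fell at 6 h, from 1951 and 2226 CPM to 1458 and 1481 CPM (log2 change -0.51, adjusted p = 0.00696).

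The serine hydroxymethyltransferases gave the widest and the narrowest of the falls. Shmt1, the cytosolic enzyme (chromosome 11, 60788104 to 60811718, minus strand), was measured at 70.1 and 86.6 CPM in the controls, 50.1 and 46.3 at 3 h and 30.3 and 24.0 at 6 h. Each group lay wholly below the one before it. The change was -0.70 ± 0.17 at 3 h (adjusted p = 0.0521), -1.53 ± 0.17 at 6 h (adjusted p = 0.000807) and -0.83 ± 0.17 from 3 h to 6 h (adjusted p = 0.0519). Shmt1 fell by 65.3% at 6 h. The first and the last of these changes missed the threshold narrowly. Both passed it without control replicate 1 (-0.85, 0.0275 and -0.82, 0.0211), and the last also without control replicate 2 (-0.82, 0.0219). Shmt1 overlaps an exon of Smcr8 on the opposite strand, a gene that did not pass the test at 6 h (0.29, adjusted p = 0.332).

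Shmt2, the mitochondrial enzyme (chromosome 10, 127517123 to 127522444, minus strand), was measured at 1038 and 960 CPM in the controls, 919 and 716 at 3 h and 791 and 631 at 6 h. The control libraries lay above all treated libraries, and the 3 h and 6 h values overlapped. The change was -0.29 ± 0.15 at 3 h (adjusted p = 0.269) and -0.49 ± 0.15 at 6 h (adjusted p = 0.039), where Shmt2 fell by 28.8%. This was the member called with the largest adjusted p. It was lost without control replicate 1 (-0.44, 0.0938), without control replicate 2 (-0.54, 0.0517) or without 6 h replicate 2 (-0.34, 0.228). An overlapping gene on the opposite strand, Ndufa4l2, had only 4 to 22 counts per library.

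The balance of the mitochondrial to the cytosolic enzyme can be read inside each library, free of scaling between libraries. The ratio of Shmt2 to Shmt1 counts was 14.8 and 11.1 in the controls, 18.4 and 15.4 at 3 h and 26.1 and 26.3 at 6 h. The groups did not overlap and stood in the order of hours of drug, so the cytosolic transcript took a smaller share of the pair in every treated library. With 2 libraries against 2, the exact permutation test cannot go below p = 0.333, so none is given for these ratios.

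Mitochondrial folate enzymes follow. Mthfd2, the dehydrogenase and cyclohydrolase used by embryonic and dividing cells (chromosome 6, 83305691 to 83325908, minus strand), was measured at 81.2 and 92.3 CPM in the controls. It stood at 71.0 and 64.9 CPM at 3 h and 48.6 and 44.2 CPM at 6 h, with no overlap between groups. The change was -0.35 ± 0.13 at 3 h (adjusted p = 0.152), -0.90 ± 0.13 at 6 h (adjusted p = 0.00284) and -0.55 ± 0.13 from 3 h to 6 h (adjusted p = 0.0831). At 6 h Mthfd2 fell by 46.5%. The change between the times passed the threshold in 6 of 17 alternative fits and ran from -0.62 to -0.42 over them.

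Mthfd1l, which releases formate from mitochondrial formyl-tetrahydrofolate (chromosome 10, 3973118 to 4167081, plus strand), was measured at 65.9 and 71.2 CPM in the controls. It stood at 58.5 and 57.9 CPM at 3 h and 47.7 and 40.3 CPM at 6 h, again without overlap. The change was -0.24 ± 0.14 at 3 h (adjusted p = 0.327) and -0.64 ± 0.14 at 6 h (adjusted p = 0.0108), where it fell by 35.8%. Without 6 h replicate 2 it was -0.52 and not called (adjusted p = 0.0962).

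Aldh1l2 oxidises the mitochondrial formyl group to carbon dioxide with NADP+ (chromosome 10, 83487450 to 83534140, minus strand). It was the rarest member, with 34 and 37 counts in the controls, 21 and 56 at 3 h, and 30 and 40 at 6 h. These correspond to 2.52 and 4.52 CPM, then 1.36 and 3.24, then 0.99 and 1.53. The 6 h change of -1.46 ± 0.57 did not pass the test (adjusted p = 0.0875), and its 95% interval ran from -2.76 to -0.16. With no filter on low counts it was called (-1.45, adjusted p = 0.0242). At this depth a fall as deep as that of Shmt1 and one close to 0 both lie inside the interval. Aldh1l2 also shares 1056 bases with D10Wsu102e on the opposite strand, which was not called at 6 h (0.20, adjusted p = 0.374).

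The cytosolic counterpart of these enzymes, the trifunctional Mthfd1, was measured at 147 and 174 CPM in the controls, 143 and 155 at 3 h and 150 and 143 at 6 h. Its 6 h change of -0.13 ± 0.12 did not pass the test (adjusted p = 0.46), and its sign turned when libraries were scaled by size alone (0.23). Mthfd2 counts were 0.553 and 0.530 of the Mthfd1 counts in the controls, 0.496 and 0.420 at 3 h, and 0.324 and 0.309 at 6 h. Mthfd1l counts were 0.449 and 0.409, then 0.409 and 0.375, then 0.318 and 0.282 of Mthfd1. Within each library, the mitochondrial transcripts therefore stood lower against the cytosolic one at 6 h than in any control. Mthfd2l, a relative of Mthfd2 expressed in adult tissue, was rare and not called (-0.73 ± 0.62, adjusted p = 0.408).

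**Figure D2:**
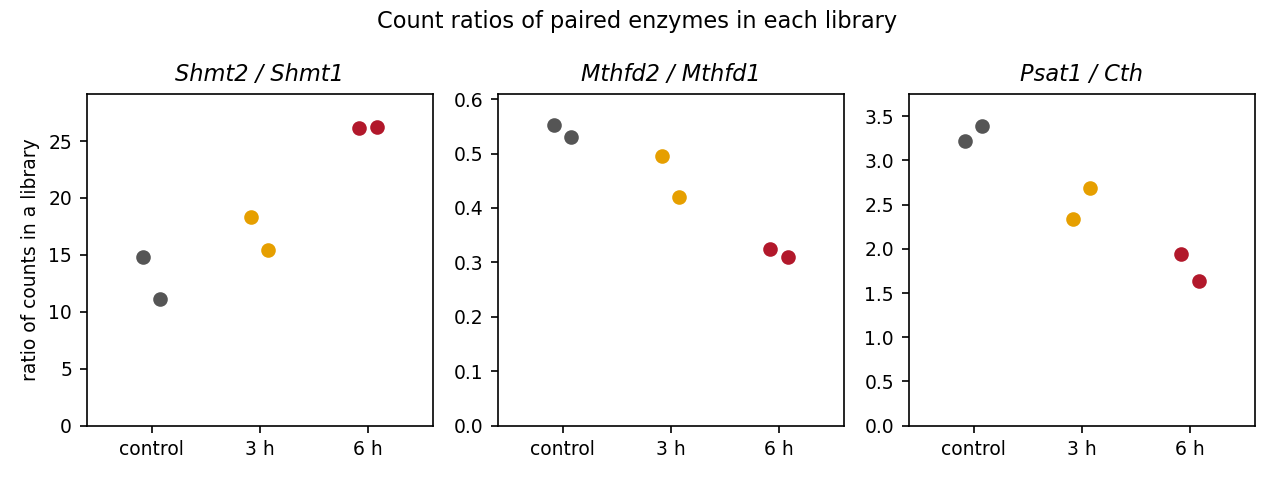
Ratios of counts within each library (vertical axis, no unit) for pairs of enzymes, by group along the horizontal axis, 1 point per library. Shmt2 over Shmt1 goes from 14.8 and 11.1 in the controls to 26.1 and 26.3 at 6 h, and Mthfd2 over Mthfd1 from 0.553 and 0.530 to 0.324 and 0.309.

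Pck2, the mitochondrial phosphoenolpyruvate carboxykinase, can feed carbon back towards 3-phosphoglycerate (chromosome 14, 55540266 to 55551242, plus strand). It was measured at 33.9 and 26.1 CPM in the controls, 22.0 and 28.4 at 3 h and 20.7 and 15.8 at 6 h. The 3 h libraries overlapped the controls and the 6 h libraries did not. The change was -0.26 ± 0.21 at 3 h (adjusted p = 0.49) and -0.73 ± 0.21 at 6 h (adjusted p = 0.0338), where it fell by 39.6%. It was not called without control replicate 1 (-0.52, 0.136), without 6 h replicate 1 (-0.94, 0.0542) or without 6 h replicate 2 (-0.55, 0.205). The window printed above with a TGATGNAA match belongs to this gene.

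Cth, the cystathionine gamma-lyase that makes cysteine in the transsulfuration pathway (chromosome 3, 157894248 to 157925077, minus strand), was measured at 224 and 228 CPM in the controls. It stood at 238 and 214 CPM at 3 h and 233 and 255 CPM at 6 h. The 3 h values lay on both sides of the controls, and the 6 h values lay just above them. The change was 0.00 ± 0.11 at 3 h (95% interval -0.25 to 0.25, adjusted p = 0.995). At 6 h it was 0.11 ± 0.11 (interval -0.14 to 0.36, adjusted p = 0.485). A fall of the size seen for Psat1 or Shmt2 lies outside the 6 h interval. Set against Cth inside each library, Psat1 counts were 3.22 and 3.39 times those of Cth in the controls, 2.34 and 2.69 times at 3 h, and 1.94 and 1.64 times at 6 h.

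**Figure D3:**
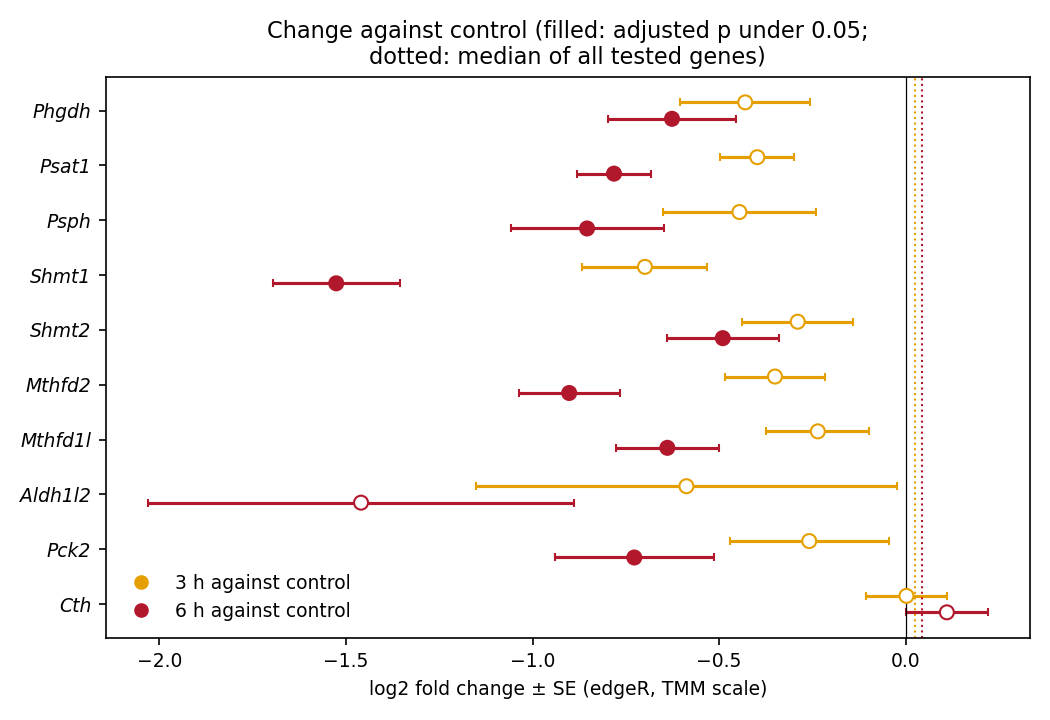
Log2 fold change ± SE of each member at 3 h and at 6 h against control (horizontal axis), from edgeR on the TMM scale. Filled points have an adjusted p under 0.05 and dotted lines mark the median of all tested genes. The 8 filled points are all at 6 h and run from -1.53 (Shmt1) to -0.49 (Shmt2), and Cth lies at 0.00 and 0.11.

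Counts over the members can be read against all genes tested. At 3 h 0 of 10 members were called in edgeR's test, against 4.9% of all genes (3.6% higher and 1.3% lower, or 459 and 166 genes), with 4 members at an unadjusted p under 0.05. DESeq2 called 2 (Psat1 and Shmt1, both lower) and limma-voom called 0. Of all 12755 genes these 2 tests called 1437 and 445 at 3 h, of which 55.4% and 63.4% were higher. The members' median log2 change was -0.37 beside 0.02 for all genes, and 7 members lay wholly below the controls, as 24.8% of all genes did, and 0 wholly above (28.4% of genes). At 6 h 8 of 10 were called lower and 0 higher, against 14.3% of all genes called lower, 14.8% called higher and 29% called in either direction (1821 lower, 1882 higher). The median was -0.75 beside 0.04, and 9 members lay wholly below the controls, as 31.2% of genes did. Cth lay wholly above them, as 35.7% of genes did. The same number of members, 8, was called lower by DESeq2 and by limma-voom. Of all 12755 genes these 2 tests called 3932 and 3619 at 6 h, of which 48.4% and 47.7% were higher.

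From 3 h to 6 h, 0 of 10 members were called in edgeR's test, against 1.64% of all genes (0.455% higher and 1.18% lower), with 4 at an unadjusted p under 0.05. DESeq2 and limma-voom each called 3 lower (Psat1, Shmt1 and Mthfd2). Of all 12755 genes these 2 tests called 667 and 508, of which 35.2% and 37.2% were higher. The median was -0.41 beside 0.01 for all genes, and 7 members lay wholly lower, as 26.9% of genes did, and 0 wholly higher (27.2% of genes). The difference between the 2 times was therefore not established for any member in the edgeR test, although the 6 h call was made for 8 and the 3 h call for none.

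These counts depend on how the libraries are made level. Scaling by library size alone moved the median of all genes to 0.25 at 3 h and 0.40 at 6 h. The share of all calls that were higher went from 73.4% to 95.8% at 3 h and from 50.8% to 88.2% at 6 h. From 3 h to 6 h it went from 27.8% to 56.5%. On that scale 4173 of 12755 genes were called at 6 h. Among them 3 members remained called lower: Shmt1 (-1.17), Mthfd2 (-0.55) and Psat1 (-0.43). Cth was called higher (0.47, adjusted p = 0.0128), beside the median of 0.40 for all genes. Without 6 h replicate 2, the members called also numbered 3. Psat1, Shmt1 and Mthfd2 were called lower at 6 h in 17 of 17 alternatives.

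**Figure D4:**
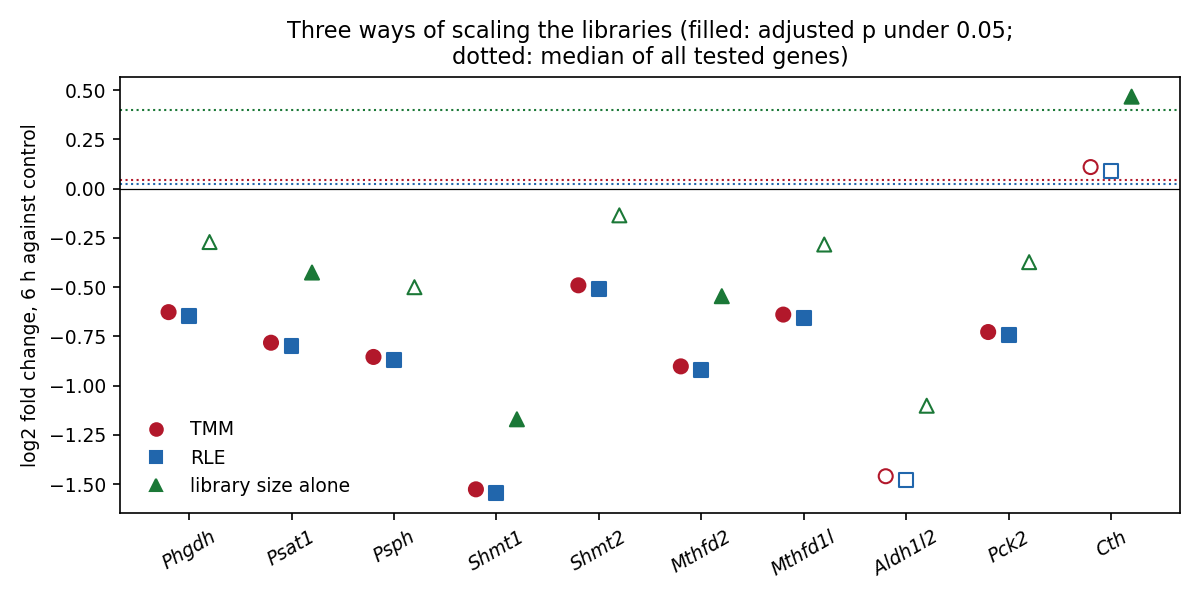
Log2 fold change at 6 h against control (vertical axis) for each member under TMM, RLE and library-size scaling. Filled markers have an adjusted p under 0.05 and dotted lines mark the median of all genes on each scale. The library-size markers sit higher for every member, with Psat1, Shmt1 and Mthfd2 still filled below 0 and Cth filled above it.

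Levels were compared between members per kilobase of the longest consensus coding transcript, which assumes that reads spread along the transcript. In the controls Shmt2 was the most abundant at 436 ± 23.9 CPM per kb (SD, n = 2), followed by Psat1 at 286 ± 13.5 and Cth at 125. Psph (42.7 ± 5.71) and Mthfd2 (41.6 ± 3.74) did not differ beyond their spread. Lower still came Shmt1 at 27.4, Mthfd1l at 18.6, Phgdh at 11.95, Pck2 at 8.84 and Aldh1l2 at 0.584 CPM per kb. The enzyme of the committed step was thus listed at a far lower level than that of the second step, with the pseudogene matches of Phgdh described above as a limit on that value.

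Neighbouring pathways were described by lists chosen by function. Of the 10 cytosolic folate enzymes described, 2 were called lower at 6 h (Fpgs and Atic) and 0 higher, against 14.3% and 14.8% of all genes, so the share called lower was near that of all genes. Their median was -0.12, which turned to 0.24 under library-size scaling. The Atic call was lost under that scaling, with only the 4 libraries compared and when any 1 library was left out. Fpgs, which adds the glutamate tail to folates, fell (-0.49 ± 0.16, adjusted p = 0.0486). That call held in 4 of 17 alternatives. It was lost without control replicate 2 (-0.38, 0.162), without either 6 h library and without either 3 h library. Over these last 4 settings the change ran from -0.55 to -0.43.

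Of 10 tested genes of mitochondrial folate transport, glycine cleavage and threonine breakdown, 2 were called lower and 0 higher, again near the 14.3% of all genes called lower, with a median of -0.47. Gcsh, the hydrogen carrier of the glycine cleavage system, fell by 0.67 ± 0.13 on the log2 scale (adjusted p = 0.00683). Tdh, the threonine dehydrogenase on which mouse embryonic stem cells rely for glycine, was measured at 431 and 432 CPM in the controls, 365 and 356 at 3 h and 323 and 296 at 6 h. Its 6 h change was -0.48 ± 0.10 (adjusted p = 0.00918). Without 6 h replicate 2, neither was called (Gcsh -0.63, 0.0591 and Tdh -0.42, 0.0797), and neither was called under library-size scaling.

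Of 9 tested genes of the methionine cycle, transsulfuration and glutathione synthesis, 5 were called lower and 0 higher at 6 h (Mat2a, Ahcy, Gclc, Gclm and Gss), with a median of -0.65. Among all genes, 14.3% were called lower and 14.8% higher. When any 1 library was left out, not all 5 of these calls held. Mat2a, the enzyme that makes S-adenosylmethionine, was measured at 781 and 453 CPM in the controls, 494 and 541 at 3 h, and 173 in each 6 h library. The control replicates stood well apart, the 3 h libraries lay between them, and the 6 h libraries lay far below. The 6 h change was -1.84 ± 0.22 (adjusted p = 0.0011). Gclc and Gclm, the subunits of glutamate-cysteine ligase, changed by -1.03 (adjusted p = 0.00101) and -1.22 (adjusted p = 0.000644) on the log2 scale. Gclm was the gene of this list called at 3 h as well (-0.68, adjusted p = 0.0245). Without any 1 of the treated libraries, 0 genes of the list were called at 3 h, and with library size alone 3 were called lower at 6 h.

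Of 19 ATF4 regulators and targets outside the members, 2 were called higher and 7 lower at 6 h. All genes had shares of 14.8% and 14.3%, and the list's median was -0.54. At 3 h 2 of the 19 were called higher and 0 lower, against 3.6% and 1.3% of all genes, with a median of -0.11. Atf4 was measured at 302 and 295 CPM in the controls, 477 and 452 at 3 h and 466 and 464 at 6 h. Every treated library lay above both controls, and the change was 0.64 ± 0.10 at 3 h (adjusted p = 0.0107) and 0.64 ± 0.10 at 6 h (adjusted p = 0.00288). Without 3 h replicate 1 or 3 h replicate 2 the 3 h change was 0.59 or 0.68 and not called (0.0952 and 0.0694). Ddit3, a stress-induced partner of the C/EBP factors, was the other gene called higher at both times (1.54, adjusted p = 0.0379, then 1.38, 0.0158). Its 3 h call was lost with limma-voom, a replicate term, thinned libraries, only the 4 libraries compared, or any 1 library left out. The 6 h call of Ddit3 was lost without either 6 h library. Without 6 h replicate 2, this list had 1 gene called higher and 3 lower at 6 h, and under library-size scaling 3 of each.

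The genes whose windows were printed beside that of Pck2 follow. Trib3, a pseudokinase induced by ATF4, was measured at 12.2 and 11.2 CPM in the controls, 14.7 and 13.1 at 3 h and 3.89 and 4.83 at 6 h. It was not called at 3 h (0.25, adjusted p = 0.511) and fell at 6 h (-1.43 ± 0.22, adjusted p = 0.00325). Chac1, which degrades glutathione, fell at 6 h by 1.32 (adjusted p = 0.0016). Asns, asparagine synthetase, did not pass the test at 6 h (-0.23, adjusted p = 0.231). The other genes of the list called lower at 6 h were Slc7a11 (the list's lowest value, -2.35), Slc7a5, Aars, Gars and Sars, which encode amino acid transporters and tRNA synthetases. Slc7a11 had a mean under 10 CPM in both the control and the 6 h group, below the level set for naming by rule.

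Of 6 tested genes of glycolysis around 3-phosphoglycerate and phosphoenolpyruvate, 4 were called lower and 0 higher at 6 h (Gapdh, Pgk1, Pgam1 and Pkm), with a median of -0.57. Among all genes the shares were 14.3% and 14.8%. Under library-size scaling 1 gene of this list was called lower at 6 h, and the list's median was -0.22. Pkm, pyruvate kinase, fell by 0.80 ± 0.23 on the log2 scale (adjusted p = 0.0308). It was not called without control replicate 1 (-0.75, 0.0635), without 6 h replicate 2 (-0.49, 0.142) or under library-size scaling.

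**Figure D5:**
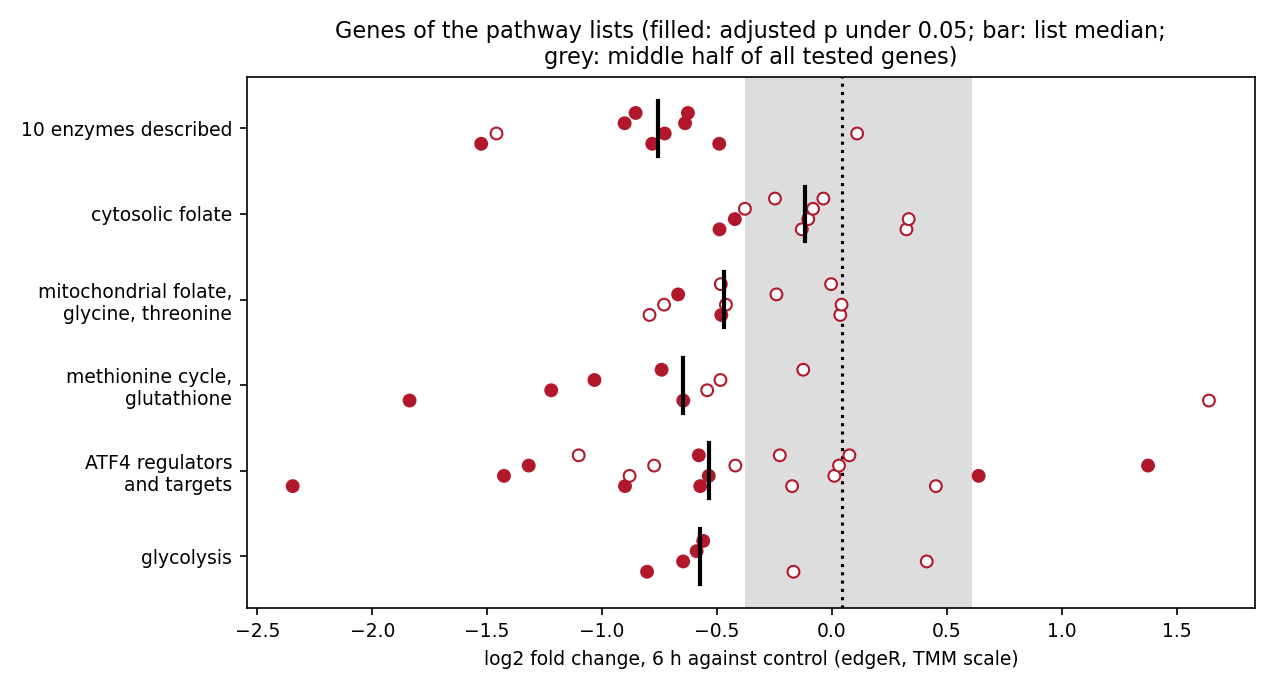
Log2 fold changes at 6 h against control (horizontal axis, TMM scale) of each tested gene in the members and in the 5 neighbouring lists, 1 point per gene, with filled points called. Bars mark list medians, from -0.75 in the members to -0.12 in the cytosolic folate list. The dotted line is the median of all tested genes (0.04), and the grey band runs from their lower to their upper quartile (-0.37 to 0.61).

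Other genes followed the members' mean profile over the 6 libraries closely. Among 5464 genes ranked by Pearson correlation with the mean z-scored log2 CPM of the members, the 5 most alike were Tdh (r = 0.998), Cox5a (0.998), Ndufb9 (0.997), Dera (0.997) and Eif3f (0.997). These are descriptions over 6 libraries in 3 groups, and the libraries share their depth and scaling across genes. Against the mean of the other members, r ran from 0.99 for Psat1 to 0.66 for Aldh1l2, and was -0.68 for Cth.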

How the data were processed

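The authors deposited raw counts per gene as whole numbers, 1 column per library, for 6 libraries. RNA was isolated with TRIzol, and barcoded polyadenylated libraries were sequenced together, per the labels' protocols. The submitters' processing notes name the build mm10. The aligner, counter, annotation, strand setting and treatment of duplicate reads are not given in the sources used here. The series' design text speaks of single cells and its title of bulk, and each file, with 1 column of values, was treated as 1 bulk library. Groups and replicate numbers came from sample titles.

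Genes with enough counts (edgeR's filterByExpr, minimum count 10, minimum total 15) numbered 12755 of 17485. Counts were fitted with edgeR 4.0.16 in R 4.3.3 (TMM scaling, quasi-likelihood test, group as the term, all 6 libraries, 3 residual degrees of freedom). The SE was taken from the fold change and its F statistic. P-values were Benjamini-Hochberg adjusted over all genes tested. Alternatives used DESeq2 1.42.0, limma-voom (limma 3.58.1), other scalings and filters, and left out each library in turn. The code was tested on simulated data. Coordinates and transcript lengths came from the GENCODE M21 annotation, and promoters from RefSeq.

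All members were named. From each list, the called genes with the largest rise and the largest fall at 6 h and a mean of at least 10 CPM were named, with Atf4, Mthfd1, Tdh and Mthfd2l added. Other genes were named after their values were seen. Members and lists were chosen with earlier results of these data known. From the cytosolic folate list, 1 gene is not reported here. Genes ranked for likeness had a mean of at least 20 CPM.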

Additional observations from a re-analysis of the deposited data

Results flagged for a closer look

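Among the neighbouring pathway genes, 4 had a change against control that differed between the treatment times in a direct edgeR test of 6 h against 3 h. They were Mat2a and Trib3, named by the rule, and Gclc and Chac1, singled out after their values were seen. Mat2a and Gclc were 2 of 9 tested genes of the methionine and glutathione list. Trib3 and Chac1 were 2 of 19 of the ATF4 list, and the other lists had 0. Of all genes tested, 1.18% were called lower and 0.455% higher between the times. Mat2a had a log2 change of -0.26 at 3 h and -1.84 at 6 h, and the difference was -1.58 ± 0.22 (adjusted p = 0.0135). Trib3 had a log2 change of 0.25 at 3 h and -1.43 at 6 h, and the difference was -1.67 ± 0.22 (adjusted p = 0.0106). Gclc differed by -0.69 (adjusted p = 0.0326) and Chac1 by -1.59 (adjusted p = 0.00497). For all 4 genes every 6 h library lay below every 3 h library. Leaving out any 1 of the 4 treated libraries left 0 genes of these 2 lists past the threshold, with differences of -1.64, -1.52, -1.58 and -1.58 for Mat2a and of -1.59, -1.76, -1.53 and -1.83 for Trib3. The members' differences between the times did not pass this test.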

How the results depend on the processing

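With 2 libraries a group, the counts of calls moved with the fit while most directions held. For 3 h against control, 625 genes were called, against 1373 with library size alone, 1437 with DESeq2, 1816 without a filter, 218 with the 4 libraries compared and 108 to 1033 leaving out 1 library. Members called lower there numbered 0, but 1 with RLE, 2 with DESeq2, 2 without a filter, 1 with a filter of 5 CPM, 2 with robust moderation and 0 to 2 leaving out 1 library. For 6 h against control, 3703 genes were called, and 1312 to 3578 leaving out 1 library. Members called lower there were 8, but 3 with library size alone (and 1 higher), 7 with libraries thinned to the smallest total (Phgdh lost), 9 without a filter (Aldh1l2 gained) and 3 to 8 leaving out 1 library. For 6 h against 3 h, 209 genes were called, against 667 with DESeq2, 508 with limma-voom, 1063 without a filter, 563 with the 4 libraries compared and 14 to 595 leaving out 1 library. Members called lower there numbered 0, but 3 with DESeq2, 3 with limma-voom, 3 without a filter, 1 at 5 CPM, 1 with robust moderation, 2 with the 4 libraries compared and 0 to 2 leaving out 1 library. Signs turned in some settings, each time for a change that did not pass the main test. At 3 h Cth was -0.0204 with RLE, -0.0203 with DESeq2, -0.000603 with limma-voom, -0.00273 without mitochondrial genes and -0.0783 to 0.0749 leaving out 1 library. With library size alone Mthfd1 was 0.12 at 3 h, 0.23 at 6 h and 0.11 between the times (0.000337 at 5 CPM), and Mthfd2l was 0.11 at 3 h. At 3 h Mat2a was -0.59 without control replicate 2 and 0.19 without control replicate 1. Leaving out 1 library gave 3 h ranges of -0.59 to 0.19 (Mat2a), -0.23 to 0.0197 (Mthfd1) and -0.74 to 0.31 (Mthfd2l). Between the times it gave -0.0385 to 0.0460 (Atf4), -0.0749 to 0.0325 (Mthfd1) and -1.25 to 0.00612 (Mthfd2l). The replicate numbers did not pair the samples (correlations of same-numbered deviations 0.083, -0.023 and 0.015). With the replicate block 126 genes were called between the times, the members' calls were unchanged, and Fpgs was lost at 6 h (adjusted p = 0.0634). The causes were not tested. Aldh1l2 had 21 to 56 counts a library, the fewest of the members.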
